A study of Homo sapiens with 6 samples.

Results

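The nuclear genes of respiratory complexes II, III and IV, with the electron carrier cytochrome c, were followed in SU-DHL-8 cells given beta-sitosterol. They were chosen by gene symbol from the deposited count table: SDHA to SDHD and their assembly factors, the UQCR genes with CYC1, the COX genes with a number, CYCS, and the ATP5 genes of complex V. The symbols matched 127 rows, of which 63 were pseudogenes. Of the 64 genes left, 36 reached a summed count of 60 over the 6 libraries and are the members described here, among 65746 genes in the table and 11525 tested. They are 4 subunits and 3 assembly factors of complex II, 10 subunits of complex III, 9 subunits and 9 assembly factors of complex IV, and CYCS. Complex V had no member. All 19 ATP5 genes of the table were listed at 0 in each library, and since every cell type uses this enzyme the zeros cannot be read as absent expression. COX1, COX2 and COX3, encoded by mitochondrial DNA, and the factor gene SDHAF3 were listed at 0 as well. The tissue-restricted genes COX6A2, COX7A1, COX6B2, COX7B2 and COX8C had 0, 8, 13, 1 and 18 counts over all libraries. The symbol rule does not reach COX4I1, which is given with the related genes below.

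SU-DHL-8 cells are an established human line of diffuse large B-cell lymphoma (DLBCL), and the genotype is given as WT. One group of 3 libraries came from cells given 15 µM beta-sitosterol, a plant sterol, for 24 h, and another of 3 from cells given the solvent DMSO at the same concentration for 24 h. The labels speak of replicate experiments on this 1 line, so the p-values here measure the spread between these samples only. In bulk RNA, fewer cells that carry a transcript and less of it per cell cannot be told apart.

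The respiratory chain passes electrons from nutrients to oxygen across the inner mitochondrial membrane. Complex II, succinate dehydrogenase, belongs to the citric acid cycle as well and hands electrons from succinate to ubiquinone. Complex III moves them on to cytochrome c, a small soluble protein that also triggers caspase activation when it leaves the mitochondrion, and complex IV reduces oxygen. Complexes III and IV pump protons, and complex V uses the gradient to make ATP. Complex II is wholly nuclear-encoded, whereas complexes III and IV also hold subunits made from mitochondrial DNA, and building them needs factors that supply haem, copper and iron-sulfur clusters.

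Library totals ran from 26453281 to 35565620 counts, and the members took 0.352%, 0.259% and 0.354% of the counts in DMSO replicates 1, 2 and 3. In treated replicates 1, 2 and 3 they took 0.524%, 0.535% and 0.533%. DMSO replicate 2 stood apart: its log2 CPM, the read count scaled to library size, correlated with DMSO replicates 1 and 3 at 0.982 and 0.972, against 0.991 between those. It held the lowest of the 6 values in 26 of 36 members (72.2%) and in 27.7% of all tested genes. Member values are therefore given with it, and the calls also without it. The B-cell label was met: all 8 B-cell markers had counts, summing to 1929 to 2586 CPM in DMSO and 2304 to 2467 CPM in treated libraries, with CD79A and CD79B at no fewer than 11169 and 15883 counts. Single markers moved both ways within that sum: PAX5 fell from 659.7 ± 43.5 to 207.6 ± 9.36 CPM and EBF1 from 80.7 ± 26.1 to 19.3 ± 1.19 CPM, while MS4A1 rose from 3.92 ± 0.63 to 18.4 ± 1.36 CPM (SD, n = 3 each). Of 8 T and NK cell markers, CD3E, CD3G and CD2 were at 0 and the sum, nearly all NKG7, was 1.73 to 4.36 CPM in DMSO and 7.67 to 8.89 CPM in treated libraries. The 6 myeloid markers summed to 5.43 to 7.36 and 6.51 to 8.47 CPM, and the 8 fibroblast and epithelial ones, with DCN and LUM at 0, to 0.12 to 0.16 and 0.72 to 2.11 CPM. Among the last, COL1A1 had 0 counts in each DMSO library and 18, 12 and 25 in the treated ones, and NKG7 (51 to 149 and 207 to 237 counts) and COL1A1 were called higher (edgeR adjusted p = 0.0089 and 0.0016). Their part in the results was not tested.

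Transcripts of the member subunits were mostly higher after beta-sitosterol, and those of the member assembly factors split. In edgeR with an adjusted p threshold of 0.05, 19 of 36 members were higher and 3 lower, where 19% of all tested genes were higher and 21.8% lower. Among the 23 subunits 14 were higher and 1, SDHA, lower, with a median log2 fold change of 0.91. Among the 12 assembly factors 4 were higher and 2 lower, with a median of 0.01. This split was limited to the symbol rule. Of the other assembly genes, given below, 7 of 17 for complex IV, 1 of 5 for complex III and 2 of 4 for complex V were higher, and 0 lower. The median over all tested genes was -0.04. All 3 treated values lay above all 3 DMSO values for 24 members and below them for 3, where this held for 27% and 29.1% of tested genes.

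**Figure D1:**
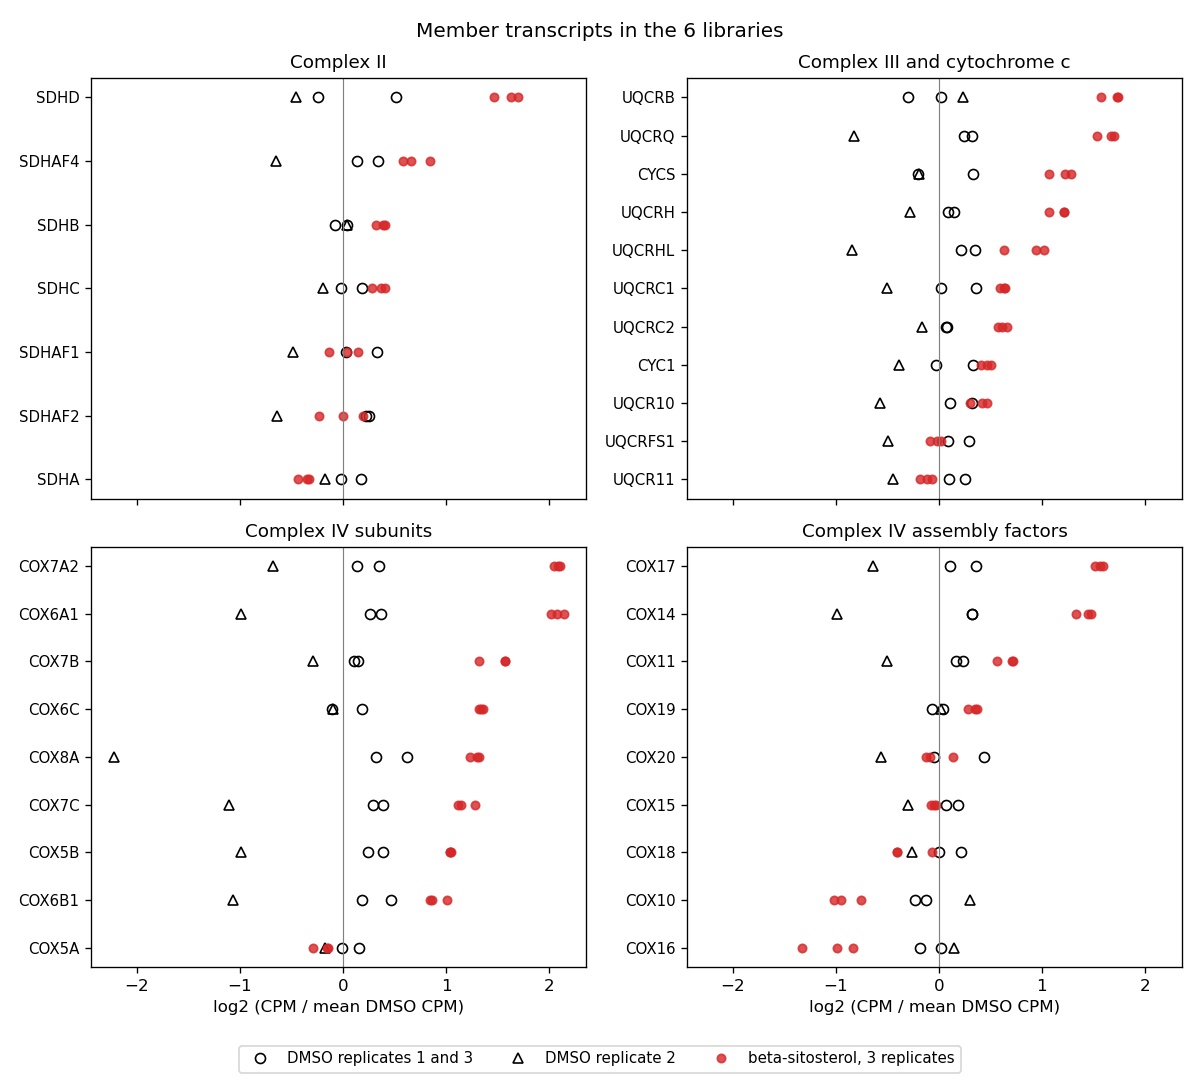
Each point is 1 library, placed on the horizontal axis by the log2 ratio of its CPM to the mean DMSO CPM of the same gene, with genes named on the vertical axis. Open circles are DMSO replicates 1 and 3, open triangles DMSO replicate 2 and red points the 3 treated libraries. The treated points lie close together, and the triangle is the lowest point in 26 of 36 genes.

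The members' mean log2 CPM, set against the DMSO mean of each gene, puts the classes side by side in every library. For subunits it was 0.23, -0.48 and 0.26 in DMSO replicates 1, 2 and 3, against 0.90, 0.96 and 0.998 after treatment. For assembly factors it was 0.16, -0.34 and 0.18 in the DMSO libraries and 0.29, 0.23 and 0.21 in the treated ones. By these means, subunits were above their DMSO range in each treated library, and the factors lay just above the upper end of theirs. By the median over genes, subunits stayed above their DMSO range, but the factors did not. The factor medians were 0.18, -0.45 and 0.19 in DMSO and 0.22, 0.035 and 0.007 in treated libraries. Treated replicates 2 and 3 thus lay inside the DMSO range by that measure. The difference of the class means was 0.07, -0.15 and 0.08 in DMSO and 0.62, 0.73 and 0.79 in treated libraries, without overlap. No test is given for this difference, since the genes of a class share their libraries.

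**Figure D2:**
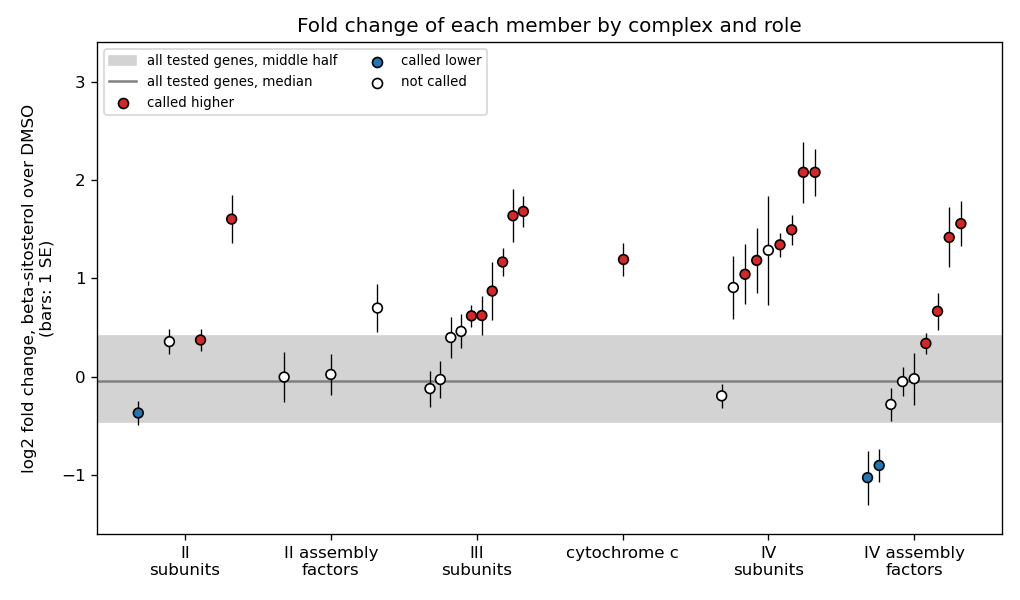
Each point is 1 member, placed by its log2 fold change of beta-sitosterol over DMSO (vertical axis; bars are 1 SE) within its complex and role (horizontal axis). Red points were called higher, blue points lower and white points neither. The grey band runs from the lower to the upper quartile of all tested genes (-0.46 to 0.41), and most subunits of complex IV lie above it.

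Complex II held a subunit that fell, SDHA, beside others that rose, SDHD and SDHB. SDHA, the flavoprotein that oxidises succinate (ENSG00000073578, chromosome 5, 218320 to 268746), stood at 402, 361 and 459 CPM in the DMSO libraries (replicates 1, 2 and 3, the order kept throughout), whereas treated libraries had 302, 319 and 325 CPM. It was the only subunit called lower, every treated value being below every DMSO value, and its log2 change was -0.37 ± 0.12 (SE), at an adjusted p of 0.040 in edgeR, a call lost in 11 of 17 alternatives. SDHD, a membrane anchor that helps to hold the haem and the quinone site (ENSG00000255292, chromosome 11, 112086873 to 112095794), stood at 27.6, 14.2 and 16.3 CPM in DMSO and at 63.1, 60.1 and 53.4 CPM in treated libraries. The groups were far apart, and SDHD rose by 1.60 ± 0.24 on the log2 scale (edgeR adjusted p = 0.0014). SDHB, the iron-sulfur protein, had 92.2, 99.6 and 99.7 CPM in DMSO and 122, 127 and 129 CPM after treatment. This small rise passed the test (0.37 ± 0.11, edgeR adjusted p = 0.023). SDHC, the other anchor, had 105, 81.1 and 91.1 CPM in DMSO and 113, 120 and 123 CPM in treated libraries, which did not overlap, but it missed the threshold at 0.36 ± 0.13 (edgeR adjusted p = 0.056).

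Within each library, SDHD reads amounted to 0.069, 0.039 and 0.036 of SDHA reads in the 3 DMSO libraries, and in the treated ones to 0.21, 0.19 and 0.16. The pair, like the others compared in this way below, was chosen after its values were seen. Such a ratio does not depend on how libraries are scaled, but the length trend described below is not removed from it. The relative length term used there was 2.14 for SDHA and 0.63 for SDHD. On the deposited TPM scale, which is per length, SDHB ranked above SDHA in all 6 libraries, SDHC came above SDHD in each DMSO library, and SDHD came above SDHC in each treated one. Mean TPM in treated cells was 86.3 ± 1.33 for SDHB, 43.6 ± 1.05 for SDHA, 27.5 ± 2.69 for SDHD and 23.1 ± 0.70 for SDHC (SD, n = 3). The last pair differed by little in treated replicate 3 (24.6 and 23.6 TPM). SDHA counts are uncertain, because the table also lists its pseudogenes with 8981 counts against 67370 for SDHA. The tested ones, SDHAP1 and SDHAP3, had log2 fold changes of 0.22 ± 0.17 and -0.14 ± 0.14 (edgeR adjusted p = 0.32 and 0.45).

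None of the 3 measured complex II assembly factors passed the test. SDHAF4, a chaperone for flavin-loaded SDHA, had 6.52, 3.29 and 5.66 CPM in DMSO and 8.15, 7.72 and 9.27 CPM in treated libraries, and came nearest (0.70 ± 0.25, edgeR adjusted p = 0.052). SDHAF1, which serves iron-sulfur insertion into SDHB, had 19.99, 13.96 and 24.7 CPM against 21.6, 20.1 and 17.9 CPM. SDHAF2, needed to attach FAD to SDHA, had 6.28, 3.39 and 6.18 CPM against 6.04, 4.50 and 5.27 CPM. Treated values of SDHAF1 and SDHAF2 fell inside the DMSO range, with log2 fold changes of 0.02 and -0.003.

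In complex III, 6 of 10 subunits were higher and 0 lower, against 19% and 21.8% of all tested genes. Their median log2 fold change was 0.62. The largest values were those of UQCRB, UQCRQ and UQCRH, all small subunits. UQCRB, which lies by the quinone-binding site (ENSG00000156467, chromosome 8, 96222947 to 96235545), had 74.8, 86.8 and 59.9 CPM in DMSO and 220.1, 244 and 246 CPM in treated libraries. DMSO replicate 2 was here the highest of its group, unlike in most members, and UQCRB rose by 1.68 ± 0.15 on the log2 scale (edgeR adjusted p = 2.02e-04). UQCRQ, another small subunit, had 47.8, 21.7 and 45.4 CPM against 111, 122 and 125 CPM (1.64 ± 0.27, edgeR adjusted p = 0.0021). UQCRH, the hinge protein at the contact with cytochrome c1, had 167, 130 and 174 CPM against 329, 364 and 363 CPM (1.17 ± 0.14, edgeR adjusted p = 5.15e-04). For both, each treated library was above each DMSO library. UQCRHL, a near-identical copy of UQCRH on chromosome 1, had 1.82 to 4.16 CPM in DMSO and 5.06 to 6.62 CPM in treated libraries (0.87 ± 0.30, edgeR adjusted p = 0.045), and reads of the copies may be split between them.

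The large core proteins of complex III rose by less. UQCRC1 had 247, 172 and 312 CPM in DMSO and 367, 378 and 381 CPM in treated libraries (0.62 ± 0.20, edgeR adjusted p = 0.034). UQCRC2 had 263, 222 and 260.2 CPM against 370.3, 380.2 and 394 CPM (0.62 ± 0.11, edgeR adjusted p = 0.0033). Of the subunits that carry electrons, CYC1, the cytochrome c1 protein, had 315, 246 and 404 CPM against 457, 428 and 444 CPM, and did not pass the test (0.46 ± 0.17, edgeR adjusted p = 0.062) although its groups did not overlap. UQCRFS1, the Rieske iron-sulfur protein, had 129, 86.3 and 149 CPM against 119.8, 115 and 123 CPM, all treated values within the DMSO range (-0.03 ± 0.19, edgeR adjusted p = 0.92). UQCR10 and UQCR11, small subunits like UQCRQ, had log2 fold changes of 0.40 ± 0.21 and -0.12 ± 0.18 and were not called (edgeR adjusted p = 0.16 and 0.63). On the per-length TPM scale CYC1 was the most abundant complex III transcript in each DMSO library and UQCRH in each treated one. In treated replicate 1 that lead was 410 against 402 TPM, and in replicate 2 it was 446 against 370 TPM.

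CYCS, the cytochrome c gene (ENSG00000172115, chromosome 7, 25118656 to 25125260), had 341, 237 and 236 CPM in DMSO and 658, 635 and 570 CPM in treated libraries. All treated values were above the DMSO values, and CYCS rose by 1.19 ± 0.17 on the log2 scale (edgeR adjusted p = 9.55e-04). The table lists 45 CYCS pseudogene rows, which together held 12 counts against 79195 for CYCS. Whether reads shared with those copies were counted is not given in the sources used here.

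Complex IV subunits had the highest median of the groups, 1.29. Of the 9, 6 were higher and 0 lower, against 19% and 21.8% of all tested genes. The median is the value of COX8A, which was not called and went to 0.80 without DMSO replicate 2. COX7A2, an isoform found in most tissues (ENSG00000112695, chromosome 6, 75237675 to 75250298), had 46.5, 22.8 and 39.95 CPM in DMSO and 151, 154.5 and 157 CPM in treated libraries. COX6A1, likewise the widely expressed isoform of its subunit (ENSG00000111775, chromosome 12, 120438113 to 120440730), had 20.7, 8.03 and 19.2 CPM against 64.7, 67.5 and 70.4 CPM. Both rose, by 2.08 ± 0.24 and 2.08 ± 0.31 on the log2 scale (edgeR adjusted p = 4.75e-04 and 0.0013), the largest values among the 36 members. COX7B had 86.3, 63.7 and 84.2 CPM against 195.5, 232 and 232 CPM (1.49 ± 0.15, edgeR adjusted p = 2.90e-04). COX6C (ENSG00000164919, chromosome 8, 99877865 to 99893707) had 84.7, 69.9 and 69.3 CPM against 187, 189 and 192 CPM (1.34 ± 0.12, edgeR adjusted p = 2.02e-04). In these 4 genes the lowest treated value was more than double the highest DMSO value.

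The other complex IV subunits showed how far DMSO replicate 2 lay from its group. COX7C had 131, 49.6 and 139.8 CPM in DMSO and 232, 236 and 260.4 CPM in treated libraries (1.18 ± 0.33, edgeR adjusted p = 0.022). COX5B had 88.5, 37.7 and 97.7 CPM against 154, 153 and 154 CPM (1.04 ± 0.30, edgeR adjusted p = 0.025). COX6B1 and COX8A were not called, with log2 fold changes of 0.91 ± 0.33 and 1.29 ± 0.55 (edgeR adjusted p = 0.053 and 0.096), although all treated values exceeded all DMSO values. COX8A was the extreme case, at 62.5, 10.7 and 77.2 CPM in DMSO against 126, 118 and 123.5 CPM in treated libraries. COX5A, which forms part of the matrix side of the enzyme, was the exception in this group. It had 164, 146 and 184 CPM against 135, 149 and 148 CPM, overlapping groups and a log2 change of -0.19 ± 0.12 (edgeR adjusted p = 0.24). Reads of COX6A1 relative to COX5A were 0.13, 0.055 and 0.10 in the DMSO libraries and 0.48, 0.45 and 0.48 in the treated ones.

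Of 9 complex IV assembly factors 4 were higher (44.4%) and 2 lower (22.2%), the latter share being near the 21.8% of all tested genes. COX17, the copper chaperone that feeds the metal towards the enzyme (ENSG00000138495, chromosome 3, 119663975 to 119677406), had 34.3, 20.4 and 40.8 CPM in DMSO and 91.2, 95.7 and 94.1 CPM in treated libraries (1.56 ± 0.23, edgeR adjusted p = 0.0013). COX14, which binds newly made COX1 protein, had 22.7, 9.19 and 22.7 CPM against 45.7, 49.5 and 50.5 CPM (1.42 ± 0.30, edgeR adjusted p = 0.0067). Both were above the DMSO range in each treated library by a wide margin. COX11, a copper-binding factor for the COX1 protein, had 65.2, 39.2 and 62.1 CPM against 90.5, 91.6 and 82.1 CPM (0.67 ± 0.19, edgeR adjusted p = 0.023), and its gene overlaps TOM1L1 and STXBP4. COX19, a small copper-related protein, had 51.2, 50.7 and 47.6 CPM against 63.7, 64.5 and 60.8 CPM (0.34 ± 0.11, edgeR adjusted p = 0.035).

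The falls came in a haem enzyme and in a scarce transcript. COX10, haem O synthase (ENSG00000006695, chromosome 17, 14069504 to 14208677), had 35.3, 50.9 and 37.8 CPM in DMSO and 20.5, 21.4 and 24.5 CPM in treated libraries. The log2 change was -0.90 ± 0.17 (edgeR adjusted p = 0.0037), and DMSO replicate 2 was the highest library. COX16, which takes part in building the COX2 module, had 1.29, 1.41 and 1.13 CPM against 0.64, 0.72 and 0.51 CPM, or 14 to 45 reads per library (-1.03 ± 0.27, edgeR adjusted p = 0.018). It overlaps the read-through gene SYNJ2BP-COX16. COX15, haem A synthase, which acts after COX10, and COX18 and COX20, which handle the COX2 protein, were not called, with log2 fold changes of -0.05 ± 0.14, -0.28 ± 0.17 and -0.02 ± 0.26 (edgeR adjusted p = 0.80, 0.22 and 0.96). COX20, with the largest p in this class, had 3.67, 2.57 and 5.17 CPM against 4.18, 3.60 and 3.49 CPM. COX17 reads relative to COX10 reads were 0.97, 0.40 and 1.08 in DMSO and 4.46, 4.48 and 3.84 in treated libraries.

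Leaving out DMSO replicate 2 lowered most rises and sharpened the test. All 19 members called higher remained so, and COX6B1, COX8A, CYC1, SDHC and SDHAF4 joined them, giving 24 higher. The lower members became 7, with UQCRFS1 (-0.23), UQCR11 (-0.31), COX5A (-0.28) and COX18 (-0.40) beside SDHA, COX10 and COX16. Over all genes 26.4% were then called higher and 30.3% lower. The median log2 fold change of subunits went to 0.58 and that of assembly factors to -0.18. COX8A moved most among the members called higher without that library, to 0.80 ± 0.10 (edgeR adjusted p = 1.10e-05).

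**Figure D3:**
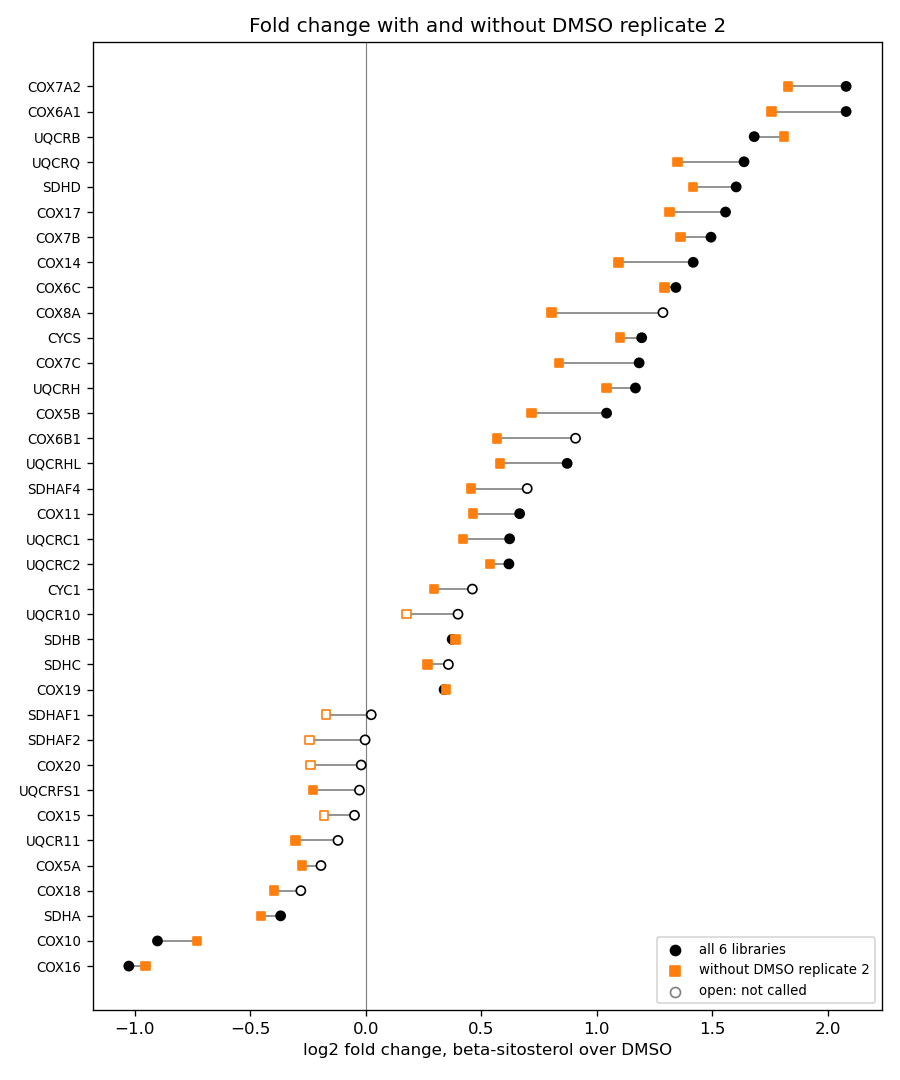
Each row is 1 member, and the horizontal axis is its log2 fold change of beta-sitosterol over DMSO. Black circles use all 6 libraries and orange squares leave out DMSO replicate 2, with open marks for members not called. The order of the members changes little, and 24 rather than 19 are called higher without that library.

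Without DMSO replicate 1 the higher members numbered 16 and without DMSO replicate 3 they numbered 23, where 15.2% and 21.9% of all genes were called higher. Without treated replicate 1, 2 or 3 the count of higher members was 12 each time, where 12.8%, 12.7% and 12.8% of all genes were called higher. The 12 genes that held with any 1 of the 6 libraries left out were SDHD, UQCRB, UQCRC2, UQCRH, UQCRQ, CYCS, COX6A1, COX6C, COX7A2, COX7B, COX14 and COX17, and COX10 was the 1 lower gene that did. Over all 17 alternatives, 7 higher members (SDHD, UQCRB, COX6A1, COX6C, COX7A2, COX7B and COX17) and COX10 were called every time. SDHA lost its call in 11 of the 17 while staying below 0, with log2 fold changes between -0.62 and -0.16. SDHB and COX19 lost theirs in 8 and 9. On the deposited TPM, tested in limma as log2(TPM + 1), the 7 were the only higher members and COX10 and COX16 the lower ones, where 6.19% of all genes were higher and 19.3% lower. Of all calls 24.3% were then higher, against 46.5% on counts, and the median of all genes was -0.19. The listed genes make up 39.5% of the TPM scale in DMSO replicate 2 and 57.0% to 69.2% in the other libraries.

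Gene length moved with the treatment and with DMSO replicate 2. The ratio of count to TPM gives a length term for each gene, set here relative to the middle of well-covered genes, and 20 of 36 members were among the 2305 shortest tested genes. Those had a median log2 fold change of 0.22 and 29.6% were called higher, against a median of -0.26 and 10.1% in the 2305 longest. Of the 20 short members, 10 were higher and 1 lower, with a median of 0.97. Across the 36 members the length term correlated with log2 fold change at r = -0.20 and rho = -0.19 and with the deviation of DMSO replicate 2 from replicates 1 and 3 at r = 0.62 and rho = 0.55. These describe genes that share the same 6 libraries and are not independent points. By this measure UQCRB stood at 1.16 and SDHD at 0.63, against a median of 0.93 over all tested genes, and COX8A was the shortest member (0.039). With each library's length trend removed in limma, 17 members were higher and 3 lower. Of all genes 20.1% were then called higher and another 20.1% lower, and the subunit median was 0.72. SDHA was then not called (-0.16, limma adjusted p = 0.38), and COX5A was the lower subunit in its place (-0.38, limma adjusted p = 0.025).

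**Figure D4:**
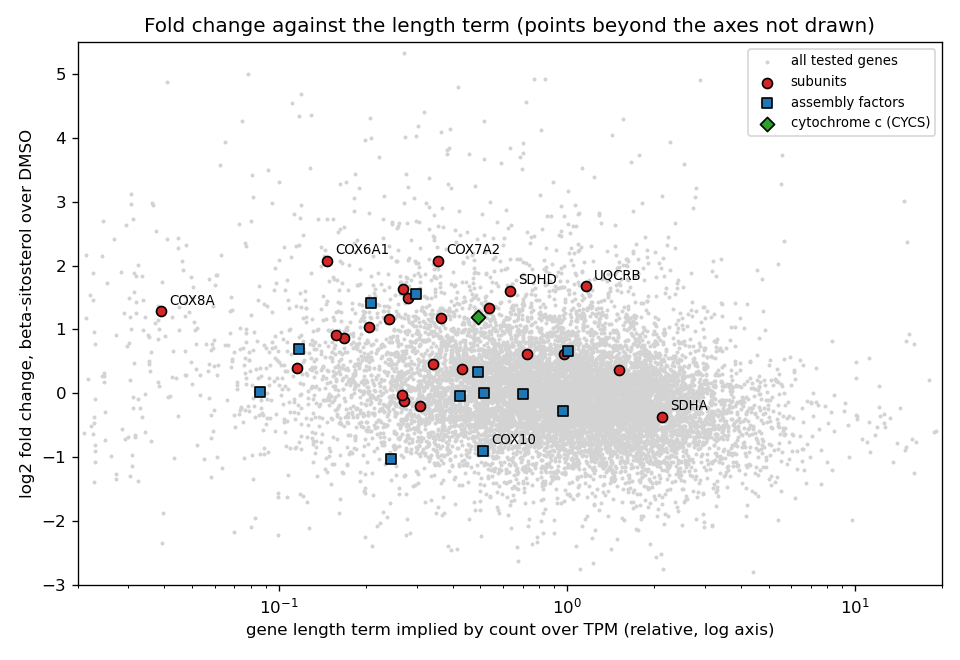
The horizontal log axis gives the relative length term from count over TPM and the vertical axis the log2 fold change of beta-sitosterol over DMSO. Grey points are the tested genes within the axes, red circles subunits, blue squares assembly factors and the green diamond CYCS. All members lie inside the grey cloud, most subunits in its upper part, and COX8A is the shortest member while SDHA (2.14) is the longest.

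Promoter sequence is a property that the symbol rule did not use. RefSeq windows of 250 bases before to 50 after the gene start (GRCh38.p14) were matched by symbol for 30 members. They were searched on both strands for NRF1 (GCGCATGCG), ETS (CCGGAAGT), YY1 (AAGATGGCG), CCAAT and TATAAA. These are sites of factors known to serve nuclear respiratory genes, and the last pair are general promoter elements. The ETS letters were found in 10 of 30 member windows (33.3%), against 9.34% of 9086 windows of tested genes and 4.44% of all 27305 windows. The NRF1 letters were found in 4 (13.3%), against 3.97% of tested genes and 2.1% of all windows, and the YY1 letters in 3 (10%), against 4.26% and 1.85%. CCAAT was found in 36.7% against 37.4% and 35.7%, and TATAAA in 10% against 5.44% and 12%. The ETS share was 33.3% among members called higher (5 of 15), lower (1 of 3) and not called (4 of 12) alike. The NRF1 letters were in 3 of 15 members called higher, 0 of 3 called lower and 1 of 12 not called, and this difference was not tested. A letter match is a description and shows no binding.

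The 120 bases before the start are shown for members of each complex that the results turn on, to set risen against fallen genes. Capitals mark the letters of any of the 5 motifs on either strand, and the strand is that of the gene. SDHD (plus strand, chr11:112086753-112086872) and COX17 (minus strand, chr3:119677407-119677526), which both rose, hold the NRF1 letters as a palindrome. SDHD has an ETS match downstream of it. COX18, not shown, holds the NRF1 letters in the same way but was not called (-0.28), and was called lower without DMSO replicate 2 (-0.40). These letters were thus not limited to genes that rose. UQCRQ (plus strand, chr5:132866522-132866641) has an ETS match and COX6A1 (plus strand, chr12:120437993-120438112) a pair of CCAAT boxes. COX7A2 (minus strand, chr6:75250299-75250418), with a rise like that of COX6A1, has none of these letters in its window. The windows shown lie at the outer end of the annotated gene, and whether these cells use that start was not tested. Among genes that fell, COX10 (plus strand, chr17:14069384-14069503) has ETS matches and SDHA (plus strand, chr5:218200-218319) none. Outside the 120 bases shown, the searched window of COX6A1 also holds the NRF1 letters, that of COX17 an ETS match and that of COX10 the YY1 letters.
SDHD: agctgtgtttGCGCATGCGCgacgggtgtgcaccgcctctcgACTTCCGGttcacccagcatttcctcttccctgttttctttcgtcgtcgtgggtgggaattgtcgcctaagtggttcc
COX17: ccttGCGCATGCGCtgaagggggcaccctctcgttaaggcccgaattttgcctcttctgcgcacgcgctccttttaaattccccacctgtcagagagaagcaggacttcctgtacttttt
UQCRQ: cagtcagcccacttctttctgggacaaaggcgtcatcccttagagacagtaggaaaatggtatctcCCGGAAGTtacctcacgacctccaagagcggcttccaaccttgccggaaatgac
COX6A1: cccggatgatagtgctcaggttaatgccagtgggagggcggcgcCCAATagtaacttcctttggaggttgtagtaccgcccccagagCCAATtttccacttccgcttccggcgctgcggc
COX7A2: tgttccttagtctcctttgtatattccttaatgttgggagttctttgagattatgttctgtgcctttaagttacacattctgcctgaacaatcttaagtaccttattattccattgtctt
COX10: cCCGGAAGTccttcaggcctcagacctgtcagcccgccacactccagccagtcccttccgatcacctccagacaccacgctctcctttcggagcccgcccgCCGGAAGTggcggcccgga
SDHA: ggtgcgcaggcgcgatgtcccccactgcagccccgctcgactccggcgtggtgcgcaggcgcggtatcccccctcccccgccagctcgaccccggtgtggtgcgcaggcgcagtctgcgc

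Related genes outside the symbol rule were read from lists of the pathway, to be set against the 19% of all tested genes that were higher and the 21.8% that were lower. Of 3 other tested subunit genes, 2 were higher and 0 lower. NDUFA4, now counted as a complex IV subunit, rose from 151 ± 54.2 to 471 ± 23.6 CPM (SD, n = 3 each), and COX4I1, the core-facing subunit 4, from 326 ± 99.2 to 758 ± 23.0 CPM (edgeR adjusted p = 0.0016 and 0.0028). COX7A2L, a supercomplex factor, was not called (0.29 ± 0.11, edgeR adjusted p = 0.057). Of 17 other complex IV assembly genes, 7 were higher and 0 lower, with a median of 0.52. SURF1, whose loss causes complex IV deficiency, rose from 13.7 ± 6.48 to 58.8 ± 1.87 CPM, CMC1 from 9.29 ± 1.03 to 23.1 ± 0.64 CPM and CMC2 from 12.9 ± 2.18 to 27.4 ± 2.04 CPM. Of 5 complex III assembly genes 1 was higher and 0 lower: BCS1L, which installs the Rieske protein (0.59 ± 0.18, edgeR adjusted p = 0.030). Of 4 tested complex V assembly genes, TMEM242 and TMEM70 were higher (0.86 and 0.69) and 0 lower.

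Of 11 tested regulators of mitochondrial biogenesis, 4 were lower (36.4%) and 0 higher, with a median of -0.44. Their median length term was 1.29, against 0.93 over all tested genes. Lower calls were more frequent in long genes: 34.1% of the 2305 longest tested genes and 24% of the 2305 next longest. The part of length in these falls was not tested. PPRC1, a coactivator of the PGC1 family, fell from 246 ± 61.4 to 111 ± 3.58 CPM (SD, n = 3 each; -1.14 ± 0.18, edgeR adjusted p = 0.0016). NRF1, the factor whose letters were searched above, went down from 46.1 ± 5.12 to 27.3 ± 1.39 CPM and YY1 from 319 ± 9.37 to 229 ± 12.4 CPM (-0.75 ± 0.13 and -0.48 ± 0.10, edgeR adjusted p = 0.0026 and 0.0070). PPARGC1B was the other lower gene. The 10 genes for mitochondrial DNA upkeep and transcription stood near the share of all genes for higher calls (20%), with 2 higher, the DNA-packaging factor TFAM (0.51) and the single-strand binding gene SSBP1 (0.53), and 1 lower, the helicase gene TWNK (-0.38).

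In neighbouring steps of energy metabolism, 2 of 18 genes of the citric acid cycle and pyruvate dehydrogenase were higher (11.1%) and 4 lower (22.2%), with a median of -0.02, so that the lower share was near that of all genes. SUCLG1, of succinyl-CoA ligase, which makes the substrate of complex II, rose from 65.2 ± 3.69 to 145 ± 4.97 CPM (SD, n = 3 each), while OGDH, the step before it, fell from 312 ± 48.7 to 169.5 ± 5.15 CPM. DLAT, of pyruvate dehydrogenase, fell from 118 ± 3.58 to 88.7 ± 2.19 CPM. Among 5 other enzymes that feed ubiquinone, ETFA and ETFB of fatty acid oxidation were higher (0.67 and 1.31) and DHODH of pyrimidine synthesis lower (-0.89). In quinone and haem synthesis, 5 of 17 genes were higher (29.4%) and 3 lower (17.6%), with PDSS2 at -0.93, COQ10A at 0.83 and UROD at 0.74. Carriers for ATP, ADP and phosphate with the outer-membrane pores numbered 7, of which 2 were higher and 2 lower (28.6% each). SLC25A6, an ATP-ADP exchanger, fell from 917 ± 149 to 499 ± 12.7 CPM and VDAC1 from 670.2 ± 78.6 to 434 ± 10.4 CPM, whereas VDAC3 rose from 99.5 ± 10.2 to 144 ± 8.36 CPM. Of 6 cristae genes 2 were higher, APOO (0.82) and CHCHD3 (0.40), and 1 lower, APOOL (-0.61).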

How the data were processed

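RNA from 6 samples, 3 treated and 3 DMSO, was sequenced. The authors deposited whole read counts per gene and TPM values scaled for gene length and library. GRCh38 is the build in the submitters' processing notes, which list StringTie 2.2.1, featureCounts 2.0.1, STAR 2.7.10 and fastp 0.23.2. Not given in the sources used here are the annotation, the strand setting and how multi-mapping reads were treated. Of 65807 rows, 61 that repeated a symbol were left out. The main test was edgeR 4.0.16 (quasi-likelihood, two-sided) under R 4.3.3, with TMM scaling and filterByExpr, and Benjamini-Hochberg adjustment over all 11525 tested genes. All 36 members passed that filter. Standard errors come from the fold change and the F statistic, and CPM are TMM-scaled. The test was tested on simulated data for this comparison, with 200 of 11525 genes changed, and found 70% of 2-fold and 94% of 4-fold changes, with 3.53% of calls false. Length trends were removed per library by lowess (span 0.3) on log2 CPM (prior count 2), then tested in limma 3.58.1. Alternatives were RLE factors, library totals, no filter or 1 CPM in 3 libraries, DESeq2 1.42.0, limma-voom, log2(TPM + 1), log2(TPM + 0.1), a replicate block, the length trend, and each library left out.

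The members and lists were chosen with earlier results of these data known, and 2 misplaced genes were removed from the lists after values were seen. Named genes were every member by its call, in each complex and class the 4 smallest and the largest p by library with some preset names, and up to 3 called genes per list by smallest p. Further members shown by library were picked once values were known. Gene positions come from RefSeq, GRCh38.p14, matched by symbol for all 36 members, of which 11 overlap another gene. Protein sequences were not used here.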

Additional observations from a re-analysis of the deposited data

How the results depend on the processing

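The replicate numbers gave no sign of shared experiments strong enough to pair samples: deviations of same-numbered samples correlated at 0.039, 0.10 and 0.15, although each sample correlated best with its own number. With the replicate block, 22 members were higher, 2 lower and 0 subunits lower, where 20% of all genes were higher and 21.1% lower. On log2(TPM + 1) and log2(TPM + 0.1), 2939 and 2935 genes were called, 7 members and 6 subunits higher, 0 subunits lower and 1 assembly factor higher on both. The median of all genes lay at -0.19 and -0.26 on those scales, against -0.04. No subunit (0) was lower with RLE factors or without the low-count filter. Leaving out 1 library at a time gave 3094 to 6640 genes called, 12 to 24 members higher and 1 to 7 lower, 9 to 18 subunits higher and 0 to 4 lower, 2 to 5 assembly factors higher and 1 to 3 lower. Over all genes, 12.7% to 26.4% were called higher and 13.5% to 30.3% lower in these fits. The medians then ran from 0.58 to 1.26 for subunits and from -0.18 to 0.29 for assembly factors. Removing the length trend and also leaving out DMSO replicate 2 was chosen after seeing the data. It gave 21 members higher and 9 lower, where 27.7% of all genes were higher and 27.8% lower. The lower ones were 4 subunits and 5 assembly factors. The subunit median was 0.53. The factor median was -0.27 and SDHAF1 stood at -0.47 (limma adjusted p = 0.0078), where the main fit had them near 0, at 0.01 and 0.02. The factor median was also negative in other alternatives, such as log2(TPM + 1) (-0.19) and without DMSO replicate 2 alone (-0.18). The cause of these shifts was not tested. The other alternatives kept these counts within 1.5 times. Depth limits COX16, COX20, SDHAF2 and UQCRHL, whose counts were under 250 in each library.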
